A study of Mus musculus with 22 samples.

Results

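Messenger RNA of natural killer (NK) cells taken fresh from mouse spleen was set against that of Panc02, the mouse pancreatic cancer line used as their target, grown in culture. The comparison takes 6 of the 22 libraries of the series. Of these, 4 are the fresh NK libraries, chosen by their labels as untreated primary cells, with 2 from female donors (samples 1 and 2) and 2 from male donors (samples 4 and 5). The other 2 are the libraries of Panc02 cultured alone (libraries 1 and 2). Strain, age and any allele of the donors are not given in the sources used here, and Panc02 is a single established line, so its libraries show how its cultures vary and not how pancreatic tumours vary. The series asks how the sex of NK cells bears on their action against pancreatic cancer, and the contrast described here gives the identity of the effector and of the target before they met.

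NK cells are innate lymphocytes that kill target cells by releasing perforin, which makes pores, and granzymes, proteases that start cell death. Their activating receptors bind stress ligands on a target, while inhibitory receptors bind class I histocompatibility molecules, so that the balance of both kinds of ligand on a tumour cell sets whether it is attacked. Epithelial cancers are built on keratins and E-cadherin junctions and can take on mesenchymal traits, such as vimentin and fibronectin, as they spread.

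Total gene counts were 35544462, 13025549, 25916684 and 37201687 in the NK libraries and 46842646 and 42123781 in Panc02. Levels are given as CPM, a gene's counts scaled to a fixed total of gene counts in each library, and where different genes are compared, as TPM, which also divides by transcript length. Of the 20243 genes tested, 7693 (38.0%) were higher and 7330 (36.2%) lower in NK cells, 74.2% in all, with edgeR's quasi-likelihood test at a Benjamini-Hochberg adjusted p below 0.05, and 3383 (16.7%) and 2339 (11.6%) differed by more than 4-fold in the same directions. The groups' libraries did not overlap at 15453 of the genes tested (76.3%), so a plain difference says little here, and each list of genes below is to be read against these shares. Genes said to be higher or lower passed the plain test. A gene without counts in a group could pass the filter on low counts only through the other group, so its direction was fixed. Per the labels, RNA of positively sorted NK cells was taken on oligo(dT) beads and RNA of cell experiments with phenol reagent, so that cell type and extraction cannot be told apart where the libraries follow that text.

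The labels were borne out by the markers of each cell. Summed over 10 NK cell markers, the level was 11384, 12081, 11348 and 11366 CPM in the NK libraries, against 17.8 and 19.8 CPM in Panc02, where Eomes alone made up nearly all of it. Over 8 epithelial markers the sum was 5.04, 2.76, 3.24 and 5.43 CPM in NK cells, against 4150 and 4094 CPM in Panc02. Each group was thus high on its own list and close to 0 on the other, with no overlap. Of the epithelial markers, Cldn4 had 0 counts in Panc02 and Epcam, the adhesion molecule often used to isolate carcinoma cells, stood at 0.506, 0.154, 0.772 and 0.645 CPM in NK cells, against 1.11 and 0.855 CPM in Panc02, and did not pass the test (edgeR, Benjamini-Hochberg adjusted p = 0.102).

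**Figure D1:**
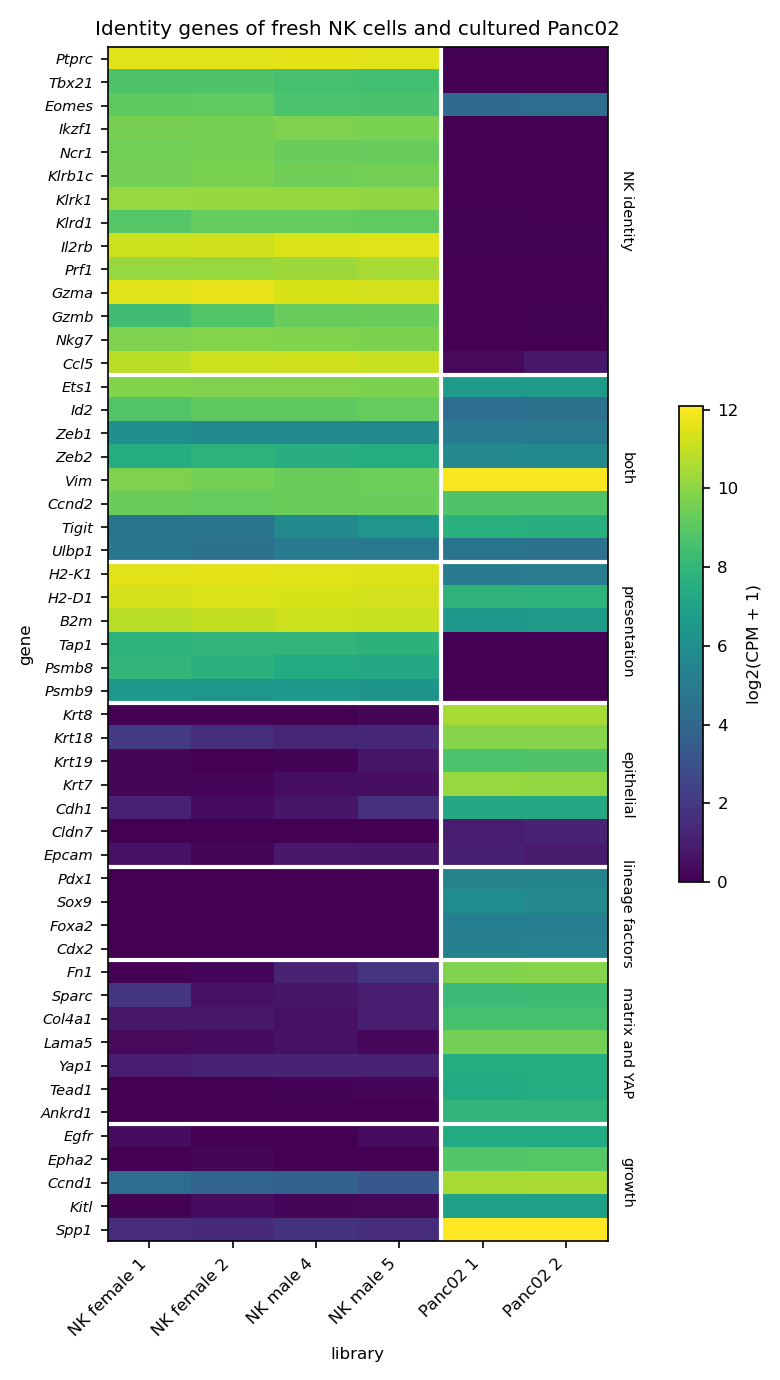
Level of identity genes as log2(CPM + 1), 1 row per gene and 1 column per library, with the 4 fresh NK libraries on the left and the 2 Panc02 libraries on the right. NK identity genes are dark (close to 0) in Panc02 apart from Eomes, keratins and lineage factors are dark in NK cells, and Ets1, Zeb1, Zeb2, Vim, Ccnd2, Tigit and Ulbp1 are found in both.

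Fresh NK cells carried markers of other blood cells. The 10 erythroid markers summed to 878 to 1347 CPM over the NK libraries, against 3.66 and 6.15 CPM in Panc02, and all 10 were detected in each NK library. Ermap, an erythroid membrane protein, had 167, 208, 282 and 271 CPM, and the red-cell transcription factor gene Klf1 55.3, 74.7, 92.2 and 75.9 CPM. In NK cells held for 24 h with interleukin-2 (IL-2), Klf1 was at 0 to 0.217 CPM and Ermap at 0.703 to 1.98 CPM, while the erythroid list as a whole still summed to 143 to 278 CPM. Neutrophil markers summed to 24.6, 80.7, 185 and 513 CPM in the NK libraries, highest in male 5, where the granule gene Ngp reached 129 CPM. Platelet markers lay between 252 and 466 CPM, and T cell and B cell markers between 34.0 and 62.4 CPM and between 18.6 and 29.0 CPM. Most of the T cell sum was Cd28, with 41.9, 35.5, 29.4 and 24.6 CPM. Dendritic cell markers reached 553 to 735 CPM, against 8.97 and 10.0 CPM in Panc02, mostly through Itgax, an integrin that NK cells also carry. All 8 tested were more than 4-fold higher in NK cells, against 16.7% of all genes tested. Among them, Ccr7 had 41.6, 31.5, 28.0 and 38.1 CPM in NK cells. Clec9a had 4.59, 6.22, 5.71 and 3.06 CPM, against 0 in Panc02. In a bulk library, fewer cells of a type and less RNA per cell cannot be told apart, and the part of such cells in the results was not tested. At all genes named as higher or lower the NK and Panc02 libraries did not overlap, apart from Pdcd1, Col3a1 and Ret.

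**Figure D2:**
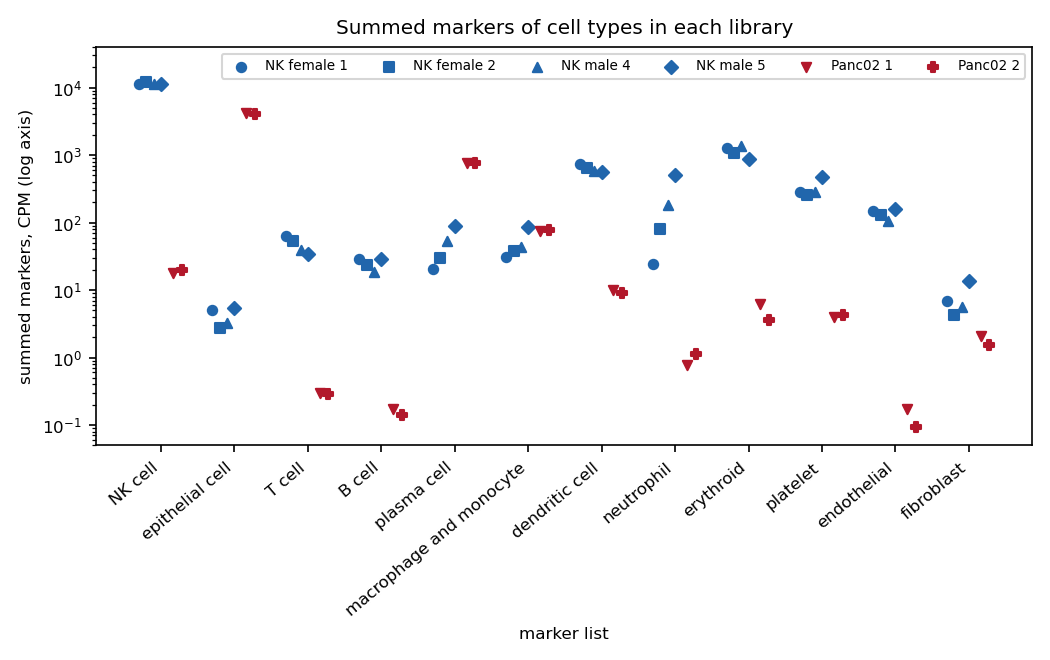
Summed level of 12 lists of cell type markers in CPM (log axis), 1 point per library, with the 4 fresh NK libraries in blue left of the 2 Panc02 libraries in red. NK libraries share NK and erythroid markers at over 800 CPM, neutrophil markers run from 24.6 CPM in female 1 to 513 CPM in male 5, and Panc02 is high on the epithelial list and, through Sdc1 alone, on the plasma cell list.

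The genes that set the cells furthest apart named them. Ranked by fold change among genes with at least 20 CPM, the 8 leading genes on the NK side were Ptprc, Gzma, Itga4, Prf1, Klrk1, Gimap4, Nkg7 and Dock2, all with 0 counts in both Panc02 libraries. Ptprc (chromosome 1, 137990599 to 138103446, GRCm39), the leukocyte phosphatase CD45, had 2956, 2843, 3104 and 3029 CPM in NK cells, against 0 in Panc02. Its level was at least 88463-fold higher, counting 3 reads over the Panc02 libraries as the floor. Gzma (chromosome 13, 113230359 to 113237515), which encodes granzyme A, had 2879.6, 3270.5, 2576 and 2453 CPM, at least 82885-fold higher. Per length it ranked first in NK cells at 8358 ± 963 TPM, hardly above the elongation factor gene Eef1a1 at 8341 TPM. Genes without a symbol and numbered gene models were left out of that ranking. The bounds on fold count single reads, while most fragments were counted as a pair, so they may be too high.

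On the Panc02 side the leading genes included Nptx1, Prkg2, Krt8, Cyp1b1, Ankrd1, Aqp5 and Prl2c2. Nptx1 (chromosome 11, 119429545 to 119438579), a secreted pentraxin best known from neurons, had 0 counts in all 4 NK libraries, against 653 and 656 CPM in Panc02, at least 24362-fold lower in NK cells. Prkg2, a cGMP-dependent protein kinase, stood likewise at 0, against 337 and 349 CPM, at least 12754-fold lower. Per length, with the same genes left out, Spp1, the secreted matrix protein osteopontin, was second in Panc02 only to Eef1a1. Spp1 had 3.68 ± 0.579 TPM in NK cells and 7856 ± 143 TPM in Panc02 (SD, n = 4 and 2). Its log2 fold change was -11.12 ± 0.08 (SE).

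Most of what either cell used was shared. At least 10 CPM in every library of the group was reached by 9245 genes in NK cells and by 9422 in Panc02, and 7828 reached it in all 6 libraries. In contrast, 379 genes at or above 10 CPM in all NK libraries, 4.10% of that set, had 0 counts in Panc02. On the other side, 93 genes at or above 10 CPM in Panc02, 0.987% of its set, had 0 counts in NK cells. The groups differ in number of libraries and depth, and NK libraries carried markers of other cells, so these counts are not on a par. The NK set held 7 members of the Gimap family of lymphocyte GTPases, from Gimap4 at 908 ± 134 CPM (SD, n = 4) to Gimap7 at 80.4, 81.2, 56.2 and 47.0 CPM. It also held genes of other blood cells, named after their values were seen: Car1, a carbonic anhydrase of red cells, had 645, 763, 956 and 893 CPM, and the immunoglobulin light chain constant gene Igkc 134, 192, 198 and 569.8 CPM.

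Of the transcription factors of the NK lineage, all 18 were higher in NK cells, against 38.0% of all genes tested, and 16 of them by more than 4-fold, against 16.7%. Their median log2 fold change was 8.04, or 6.47 with genes at 0 in Panc02 set at their bound, against 0.02 over all genes tested. The 8 at 0 in Panc02 could pass the filter on low counts only through NK cells, so they could only be higher. Tbx21 (chromosome 11, 96988897 to 97006157), encoding T-bet, which directs NK maturation and the interferon-γ programme, had 434, 437, 376 and 339.8 CPM in NK cells and 0 in Panc02. Ikzf1, encoding the lymphoid factor Ikaros, had 785, 788, 858 and 805 CPM, also against 0. Both groups stood wholly apart at these genes.

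Several of these factors were not lymphocyte-restricted in this contrast. Eomes (chromosome 9, 118307280 to 118315200), the T-box partner of T-bet, had 543, 559, 411 and 385 CPM in NK cells, with both female libraries above both male ones, against 17.7 and 19.7 CPM in Panc02. Its log2 fold change was 4.57 ± 0.08 (edgeR, Benjamini-Hochberg adjusted p = 1.59e-11), and the Panc02 level was well above 0. Order by sex was not tested, here or at genes below, and its share over all genes was not taken. Ets1, an ETS factor needed for NK development, was at 857 ± 21.6 CPM in NK cells and 96.6 ± 3.58 CPM in Panc02, with a log2 fold change of 3.08 ± 0.06. Id2, which blocks E proteins in innate lymphocytes, had a log2 fold change of 4.58 ± 0.11. Zeb2, a repressor that acts in NK maturation and in epithelial-mesenchymal transition alike, one of 1.83 ± 0.09.

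Cytotoxic effector genes were higher in NK cells in 22 of 23 cases, 20 of them by more than 4-fold. Over all genes tested, 38.0% were higher and 16.7% by more than 4-fold. The median log2 fold change of the list was 9.93 (6.80 with 0 counts at the bound). Perforin, encoded by Prf1 (chromosome 10, 61133612 to 61140459), had 1196, 1207, 1281 and 1439.6 CPM in NK cells and 0 in Panc02, at least 37981-fold higher. Gzmb, encoding granzyme B, had 335, 451, 609.7 and 662 CPM in NK cells, lowest in both female libraries, against 0 and 0.0475 CPM in Panc02. With only 2 reads in Panc02 the ratio of its counts was 23198 (95% counting interval 6422 to 191560.0). Nkg7, a granule membrane protein, Ctsw, a cathepsin of killer cells, and Fasl, the ligand of Fas, were likewise at or close to 0 in Panc02. The gene that went the other way was Lamp1, a membrane protein of all lysosomes whose arrival at the cell surface marks degranulation. It had 189, 189.7, 216 and 192 CPM in NK cells, against 493 and 505 CPM in Panc02, a log2 fold change of -1.42 ± 0.06.

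The promoters of a killer gene and of a receptor gene are shown because Prf1 and Ncr1 were high in all NK libraries and had 0 counts in Panc02. They come from RefSeq (GRCm38.p6, a build older than that of the counts) and run from 250 bases before to 50 after the start site. Capitals mark the RUNX letters TGTGGT and the ETS letters GGAAGT on either strand. The T-box letters GGTGTGA were searched in the same way and are in neither window.
Prf1, chr10:61297586-61297885, plus strand: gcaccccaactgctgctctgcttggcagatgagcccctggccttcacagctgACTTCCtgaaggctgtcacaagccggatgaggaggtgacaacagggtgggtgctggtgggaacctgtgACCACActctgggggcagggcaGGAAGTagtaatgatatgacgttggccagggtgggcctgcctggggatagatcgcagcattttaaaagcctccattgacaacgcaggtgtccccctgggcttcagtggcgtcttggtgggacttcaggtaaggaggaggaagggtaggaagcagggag
Ncr1, chr7:4337465-4337764, plus strand: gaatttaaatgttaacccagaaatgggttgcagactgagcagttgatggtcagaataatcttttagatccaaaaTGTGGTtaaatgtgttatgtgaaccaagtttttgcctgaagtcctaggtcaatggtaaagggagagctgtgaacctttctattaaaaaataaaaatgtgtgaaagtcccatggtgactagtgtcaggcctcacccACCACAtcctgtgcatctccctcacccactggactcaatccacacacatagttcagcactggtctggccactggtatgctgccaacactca
In the Prf1 window the RUNX letters start at base 121 and the ETS letters at bases 53 and 143, and in the Ncr1 window the RUNX letters start at bases 75 and 210, with no overlap between matches. The RUNX letters are in 18.6% of the 2528 promoter windows of genes more than 4-fold higher in NK cells, in 13.0% of the 1863 windows of genes more than 4-fold lower and in 16.8% of all 32851 windows. For the ETS letters these shares are 27.4%, 17.2% and 23.8%, and for the T-box letters 5.06%, 3.60% and 3.98%. A match is a run of letters and not a binding site, and Runx3, an RNA of NK cells at 329 to 355 CPM, was also found in Panc02, at 49.0 and 44.9 CPM.

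Activating receptors and their adaptors were higher in NK cells in 16 of 16 cases, all by more than 4-fold. Over all genes tested, 38.0% were higher and 16.7% by more than 4-fold. The 11 with 0 counts in Panc02 could pass the filter on low counts only through NK cells, so they could only be higher. The median log2 fold change of the 16 was 14.52 (12.19 with 0 counts at the bound). Klrk1 (chromosome 6, 129587286 to 129600827), the receptor NKG2D for stress ligands, had 1180.2, 1158, 1144 and 1089.7 CPM in NK cells, at least 33897-fold higher than in Panc02. Ncr1 (chromosome 7, 4340723 to 4348163), the receptor NKp46, had 736, 786, 669.9 and 624 CPM, at least 20874-fold higher, and Klrb1c, the NK1.1 antigen, 763, 799.9, 714 and 757 CPM, at least 22495-fold higher. All 3 kept within a narrow band over the NK libraries. Cd226, the receptor DNAM-1 for Pvr and Nectin2, had 47.5, 37.1, 46.9 and 46.8 CPM in NK cells, lowest in female 2, against 0 and 0 in Panc02. Klra4, an activating Ly49 receptor gene, had 509, 584, 561 and 533 CPM in NK cells, against 10.6 and 11.6 CPM in Panc02. Reads of near-identical Klra genes were counted for several of them, so single members of this family are uncertain.

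Many of these receptors lie side by side in the NK gene complex of chromosome 6. Between the outermost Klr genes (chromosome 6, 128586190 to 131224325, GRCm39) the table holds 145 genes, of which 56 were tested and 49 (87.5%) were more than 4-fold higher in NK cells, against 16.7% of all genes tested, and 2 more than 4-fold lower. Of 28 Klr genes in it, 25 were tested, 24 were more than 4-fold higher and 17 of those tested had 0 counts in Panc02, while 1 was lower. The region was bounded by genes of a lymphocyte receptor family, so its share describes those genes and is no independent result on position. Those with 0 counts in Panc02 could pass the filter on low counts only through NK cells, so they could only be higher.

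Inhibitory receptors were more mixed. Of 19 genes 18 were tested, 14 were higher and 3 lower in NK cells, against 38.0% and 36.2% of all genes tested. The median log2 fold change of the list was 11.22 (9.65 with 0 counts at the bound). Those that read class I molecules were high: Klrd1, the CD94 chain that pairs with NKG2 proteins, had 474, 601, 591 and 564 CPM in NK cells, and Klra7 and Klra9, inhibitory Ly49 receptors, 336 ± 64.8 and 324 ± 72.2 CPM (SD, n = 4) with 0 in Panc02. Klrg1, which binds E-cadherin, had 128, 141, 105 and 96.8 CPM, against 0. Lag3, a checkpoint receptor, stood at 9.85, 4.07, 4.82 and 4.87 CPM, and Pdcd1, encoding PD-1, at 0.450, 0, 0.309 and 0.323 CPM with 0 in Panc02, a call that was lost without NK female 1 or without either Panc02 library.

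Tigit (chromosome 16, 43469230 to 43484509), an inhibitory receptor of lymphocytes for Pvr and Nectin2, was lower in NK cells than in the tumour line. It had 24.9, 24.0, 54.4 and 81.1 CPM in NK cells, against 213 and 193 CPM in Panc02, with both male NK libraries above both female ones and every NK library below both of Panc02. The log2 fold change was -2.38 ± 0.13 (edgeR, Benjamini-Hochberg adjusted p = 2.8e-07), and it also passed the test for more than 4-fold. A difference between the sexes was not tested. NK cells after 24 h with IL-2 had 99.6 to 111 CPM, and co-cultures of NK cells with Panc02, which are mixtures of both cells, had 204 to 221 CPM. Per length, the Tigit level in Panc02 was 666 ± 45.8 TPM, between that of the keratin genes Krt7 at 494 ± 26.0 TPM and Krt19 at 676 ± 32.1 TPM. Havcr2, encoding the receptor TIM-3, was also lower in NK cells, at 3.57, 2.30, 6.33 and 3.04 CPM, against 9.86 and 11.02 CPM in Panc02, with a log2 fold change of -1.55 ± 0.28. Pilra was under 1 CPM in all 6 libraries.

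The promoter of Tigit is shown because a lymphocyte receptor gene was read at a high level in an epithelial line. Capitals mark the RUNX letters TGTGGT on either strand, and the ETS and T-box letters given above are not in the window.
Tigit, chr16:43664135-43664434, minus strand: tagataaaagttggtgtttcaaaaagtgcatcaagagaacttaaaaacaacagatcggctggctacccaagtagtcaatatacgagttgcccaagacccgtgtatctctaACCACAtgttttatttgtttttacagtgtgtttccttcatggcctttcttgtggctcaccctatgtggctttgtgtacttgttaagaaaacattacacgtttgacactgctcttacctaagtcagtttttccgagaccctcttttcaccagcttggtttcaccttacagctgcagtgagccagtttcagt
The RUNX letters start at base 111 of this window. Whether transcripts of Panc02 start there was not tested, since the counts are summed over exons.

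Signalling and adhesion genes of lymphocytes were higher in NK cells without exception (26 of 26, 25 by more than 4-fold). These shares were 38.0% and 16.7% over all genes tested. The list had a median log2 fold change of 12.65, or 11.60 with 0 counts at the bound. Itgal and Itgb2 together encode LFA-1, the integrin that binds Icam proteins on a target. Itgal had 1160.4, 1328, 1515 and 1519 CPM in NK cells, against 0.171 and 0.119 CPM in Panc02, and both male libraries were above both female ones. Itgb2 had 1432, 1536, 1519.8 and 1381 CPM, against 7.94 and 6.84 CPM. The integrin subunit Itga4, which mediates homing, had 0 counts in Panc02 and 1555, 1639, 1676 and 1419.9 CPM in NK cells. Laptm5, a lysosomal protein of blood cells, and Selplg, the selectin ligand, averaged 2062 ± 74.0 and 1177 ± 85.8 CPM in NK cells and under 0.1 CPM in Panc02.

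**Figure D3:**
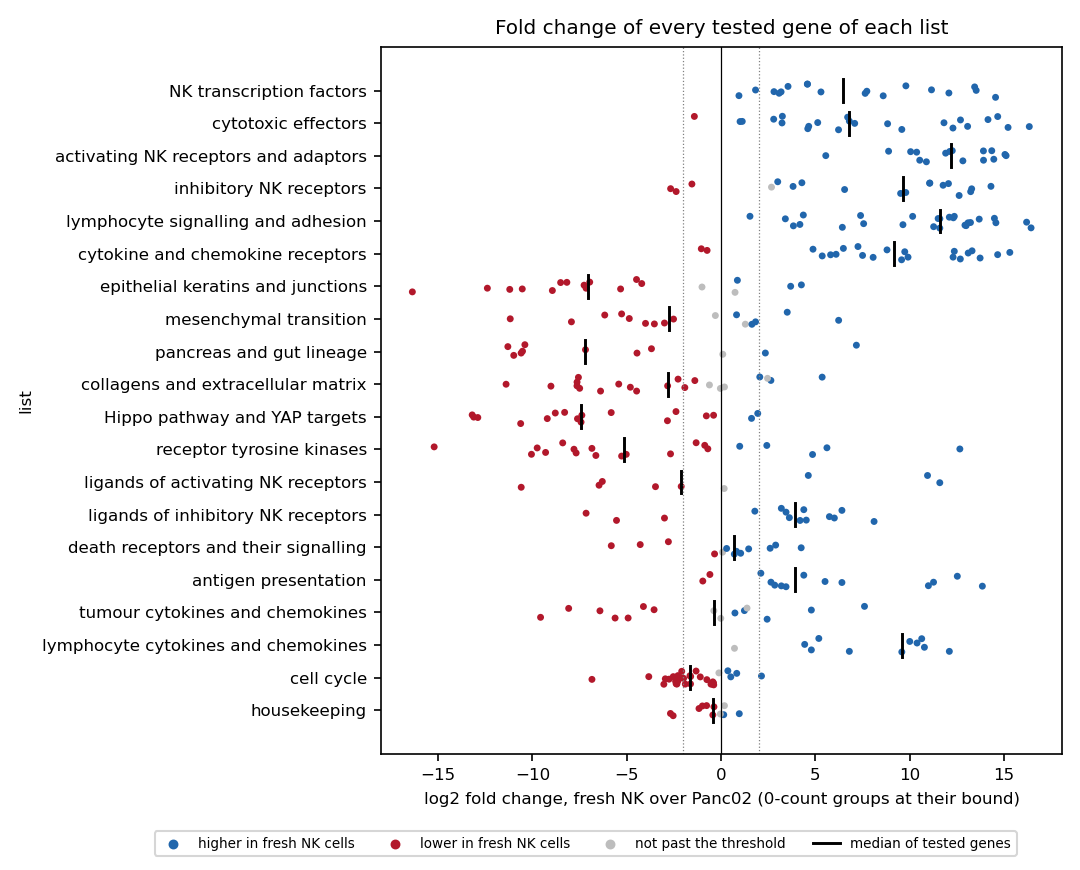
Log2 fold change of fresh NK cells over Panc02 for every tested gene of 20 lists, 1 point per gene, with genes at 0 counts in a group placed at their bound, the median as a black line and dotted lines at 4-fold. The 6 lymphoid lists at the top have medians between 6.47 and 12.19, the epithelial, lineage and Hippo lists lie mostly left of 0, and the cell cycle list has a median of -1.65 with Ccnd1 apart at -6.84.

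Cytokine and chemokine receptors were higher in 20 of 22 cases, all 20 by more than 4-fold, against 38.0% and 16.7% of all genes tested. Their median log2 fold change was 9.18. Il2rb (chromosome 15, 78363456 to 78379471), the chain shared by the receptors of IL-2 and IL-15, had 2316, 2339.9, 2702 and 2879 CPM in NK cells, against 0.0854 and 0.0950 CPM in Panc02. The common chain Il2rg, and Il18r1 and Il18rap, the receptor of IL-18, averaged 509 ± 50.7, 459 ± 13.8 and 967 ± 53.8 CPM in NK cells. The 2 genes that were lower encode the receptor of TGF-β, which restrains NK cells. Tgfbr1 had 54.2, 45.5, 46.4 and 43.8 CPM in NK cells, against 89.9 and 97.2 CPM in Panc02. Tgfbr2 had 140.2, 133, 146 and 143 CPM, against 213 and 234 CPM. NK cells thus held both receptor RNAs, at a lower level than the tumour line.

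Cytokines that NK cells make were present before any target was met. Of 12 lymphocyte cytokines and chemokines 11 were tested and 10 were higher in NK cells, all by more than 4-fold, with none lower. Over all genes tested, 38.0% were higher and 16.7% by more than 4-fold. Ccl5, encoding the chemokine RANTES, had 1796, 2266, 2408 and 2153 CPM in NK cells, against 0.256 and 0.688 CPM in Panc02. Ifng, encoding interferon-γ, had 24.3, 28.5, 29.7 and 20.8 CPM, against 0, at least 766-fold higher. Xcl1, which draws dendritic cells, had 48.7, 61.1, 53.2 and 51.7 CPM with 0 in Panc02.

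Panc02 carried an epithelial programme with gaps. Of 25 keratin and junction genes 18 were tested, 13 were lower in NK cells, all by more than 4-fold, against 36.2% of all genes tested lower and 11.6% lower by more than 4-fold. The median log2 fold change of those tested was -7.21 (-7.06 with 0 counts at the bound). Krt8 (chromosome 15, 101905133 to 101912917), which pairs with Krt18 in the filaments of simple epithelia, had 0, 0, 0 and 0.134 CPM in NK cells, against 1437 and 1438 CPM in Panc02, a log2 fold change of -16.37 ± 0.18 (edgeR, Benjamini-Hochberg adjusted p = 8.41e-12). Krt19, a keratin of ducts, had 0.113, 0, 0.0772 and 0.618 CPM in NK cells, against 402 and 429 CPM in Panc02. The Panc02 libraries were alike and every NK library was under 1 CPM at both keratins. Cdh1 (chromosome 8, 107329983 to 107396878), encoding E-cadherin, had 1.13, 0.307, 0.656 and 2.07 CPM, against 155 and 157 CPM, a log2 fold change of -7.16 ± 0.26, and the junction scaffold gene Tjp1 differed by -4.48 ± 0.07.

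Part of that list was low or absent in the tumour line too. Cldn7 had 0.897 and 1.26 CPM in Panc02, and, named after their values were seen, the splicing factor gene Esrp1 and the P-cadherin gene Cdh3 had 0 counts in all 6 libraries. Over both Panc02 libraries a count of 0 allows up to 0.0337 CPM. Against the list's direction, Dsp, Pkp3 and St14 were higher in NK cells. Pkp3, a desmosomal plakophilin, had 52.2, 43.9, 31.7 and 36.9 CPM in NK cells, against 20.5 and 22.1 CPM in Panc02, while desmoplakin (Dsp) and the membrane protease gene St14 were under 6 CPM in every library.

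Mesenchymal genes divided between the cells. Of 20 genes 16 were tested, 9 were lower in NK cells and 5 higher, against 36.2% and 38.0% of all genes tested. The median log2 fold change of the list was -2.76. Vim (chromosome 2, 13578738 to 13587637), encoding vimentin, which lymphocytes also use, had 859.7, 752, 655 and 689 CPM in NK cells, against 3981 and 4052 CPM in Panc02. Its log2 fold change was -2.52 ± 0.06, and per length it stood at 469 ± 50.4 TPM in NK cells and 2556 ± 32.3 TPM in Panc02. Fn1, encoding fibronectin, had 0.0563, 0.154, 1.27 and 2.58 CPM, against 898 and 946 CPM, and Sparc, a secreted matrix-binding protein, 2.76, 0.461, 0.617 and 0.968 CPM, against 297 and 311 CPM. These genes and Krt8 were thus read at high levels in the same Panc02 libraries.

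The factors that drive the transition did not go one way. Snai1, a repressor of E-cadherin named after its values were seen, had 0.619, 0, 0.270 and 0.0269 CPM in NK cells, against 17.5 and 15.2 CPM in Panc02, a log2 fold change of -6.17 ± 0.48. Zeb1 was higher in NK cells, at 65.0, 54.3, 49.8 and 53.9 CPM, against 31.1 and 29.1 CPM in Panc02, a log2 fold change of 0.82 ± 0.10. Zeb2 went the same way, with 180.0, 224, 190.0 and 176 CPM in NK cells and 50.6 and 52.2 CPM in Panc02. Snai2, a related factor, reached at most 0.0772 CPM in an NK library, against 0 counts in Panc02. The N-cadherin gene Cdh2, lower in NK cells, had 0.422, 0.461, 0.0772 and 0.0538 CPM there, against 1.34 and 1.28 CPM in Panc02. Tgfbi and Tagln, also higher in NK cells, were under 4 CPM, and the call of Tagln was lost on leaving out each library but NK female 2.

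Transcription factors of foregut and pancreas were read in Panc02, and several genes of exocrine cells were not. Of 22 genes of pancreas and gut only 11 passed the filter on low counts; 8 of those were lower in NK cells, all by more than 4-fold, and 2 higher. Because genes absent from NK cells could pass only through Panc02, these counts are a description. Pdx1 (chromosome 5, 147206769 to 147212658), the homeobox gene of the early pancreas, had 0 counts in all NK libraries, against 41.1 and 42.2 CPM in Panc02, at least 1551-fold lower in NK cells. Sox9, a factor of pancreatic ducts and progenitors, had 0 counts in NK cells, against 58.1 and 51.2 CPM in Panc02. The same held for Foxa2, a pioneer factor of endoderm, at 0, against 36.2 and 36.4 CPM. Per length, Cdx2, the homeobox gene of intestinal epithelium, stood beside Pdx1 in Panc02, at 52.9 ± 1.75 TPM and 58.3 ± 1.07 TPM, and had 0 counts in NK cells.

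Several acinar and endocrine genes, in contrast, were not detected. Named after their values were seen, Ptf1a, Rbpjl, Prss1, Cpa1 and Amy2b, regulators and enzymes of exocrine cells, and the endocrine factor genes Nkx6-1 and Neurog3 had 0 counts in all 6 libraries. Cela1, an elastase gene, was higher in NK cells, with 11.96, 18.7, 18.9 and 14.6 CPM, against 0.107 and 0.0950 CPM in Panc02. Bhlha15 was at most 1.10 CPM, and its call was lost without NK male 5 or without Panc02 1.

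Basement membrane genes were among those that differed most in the matrix list. Of 23 matrix genes 21 were tested, with a median log2 fold change of -2.83. In NK cells 14 were lower and 3 higher, against 36.2% and 38.0% of all genes tested. Without Panc02 1 only 1 was higher. Col4a1, a chain of the network collagen of basement membranes, had 0.731, 0.768, 0.463 and 1.02 CPM in NK cells, against 383 and 377 CPM in Panc02. The laminin chain gene Lama5 had 0.225, 0.307, 0.502 and 0.215 CPM, against 754 and 744 CPM, a log2 fold change of -11.40 ± 0.12, and Lamb1 and Lamc1 differed by -7.56 ± 0.12 and -4.81 ± 0.06. Fibrillar collagens differed from each other. Col5a1, named after its values were seen, was lower in NK cells, with 22.8, 22.03, 24.8 and 26.6 CPM there, against 159 and 168 CPM in Panc02. Col1a2 had 0 counts in Panc02, against 1.72, 0.537, 0.887 and 2.39 CPM in NK cells, and Col3a1 stood at 0.900, 0.154, 1.35 and 2.45 CPM, against 0.0854 and 0.237 CPM. The fibroblast markers as a list summed to 4.22 to 13.8 CPM in the NK libraries, against 1.52 and 2.09 CPM in Panc02.

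Targets and partners of the growth regulator YAP were almost wholly on the tumour side. All 17 genes of the Hippo list were tested. Of these, 15 were lower in NK cells and 13 by more than 4-fold, against 36.2% and 11.6% of all genes tested. The median log2 fold change was -7.42. Yap1 itself (chromosome 9, 7932000 to 8004597) had 0.928, 1.31, 1.27 and 1.16 CPM in NK cells, against 180.1 and 176 CPM in Panc02, and its DNA-binding partner gene Tead1 0, 0, 0.0772 and 0.108 CPM, against 168 and 180.3 CPM. Ankrd1 (chromosome 19, 36089361 to 36097499), a target gene of YAP, had 0 counts in NK cells, against 240.3 and 236 CPM in Panc02. The 2 genes higher in NK cells encode upstream kinases that restrain YAP: Stk4, also known as MST1, had 357, 321, 343 and 340.1 CPM in NK cells, against 87.0 and 81.3 CPM in Panc02, and Lats2 43.3, 43.1, 47.7 and 48.0 CPM in NK cells with a log2 fold change of 1.61 ± 0.10.

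The promoter of Ankrd1, from RefSeq as above, is shown because TEAD proteins bring YAP to DNA. Capitals mark the TEAD letters GGAATG on either strand. The AP-1 letters TGANTCA were also searched and are not in the window. The RUNX letters, starting at base 25, and the T-box letters, starting at base 175, are in it and not in capitals.
Ankrd1, chr19:36119795-36120094, minus strand: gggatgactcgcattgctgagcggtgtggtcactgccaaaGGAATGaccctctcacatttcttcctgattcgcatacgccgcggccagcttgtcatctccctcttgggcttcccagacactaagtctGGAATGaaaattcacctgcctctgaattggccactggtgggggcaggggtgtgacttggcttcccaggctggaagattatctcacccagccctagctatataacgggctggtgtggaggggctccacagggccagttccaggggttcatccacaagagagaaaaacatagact
The TEAD letters start at bases 41 and 128. They are in 12.7% of windows of genes more than 4-fold higher in NK cells, 15.4% of windows of genes more than 4-fold lower and 14.7% of all windows, and the AP-1 letters in 7.16%, 9.07% and 7.81%.

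Receptor tyrosine kinases are the growth factor receptors targeted in carcinomas. Of 24 genes 20 were tested, 15 were lower in NK cells and 12 by more than 4-fold (median log2 fold change -5.15). Over all genes tested, 36.2% were lower and 11.6% by more than 4-fold. Epha2, an ephrin receptor, had 0, 0.154, 0 and 0 CPM in NK cells, against 463 and 482 CPM in Panc02. Egfr had 0.338, 0, 0 and 0.269 CPM, against 164 and 165 CPM. The clear exception was Kit (chromosome 5, 75735576 to 75817382), the receptor of stem cell factor, with 175, 190.2, 243 and 264 CPM in NK cells and 0 in Panc02, at least 6464-fold higher. Its ligand gene Kitl stood the other way round, at 0.0563, 0.307, 0.154 and 0.215 CPM in NK cells, against 114 and 114 CPM in Panc02. Kit is also a gene of blood progenitors and was at 112.9 to 163 CPM in NK cells after 24 h with IL-2, where the erythroid list still summed to 143 to 278 CPM. The part of such cells in its level was not tested. Ret, Pdgfrb and Kdr were higher in NK cells but under 9 CPM throughout, and the call of Ret was lost without NK male 5, without Panc02 1 and with NK cells as 1 group.

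**Figure D4:**
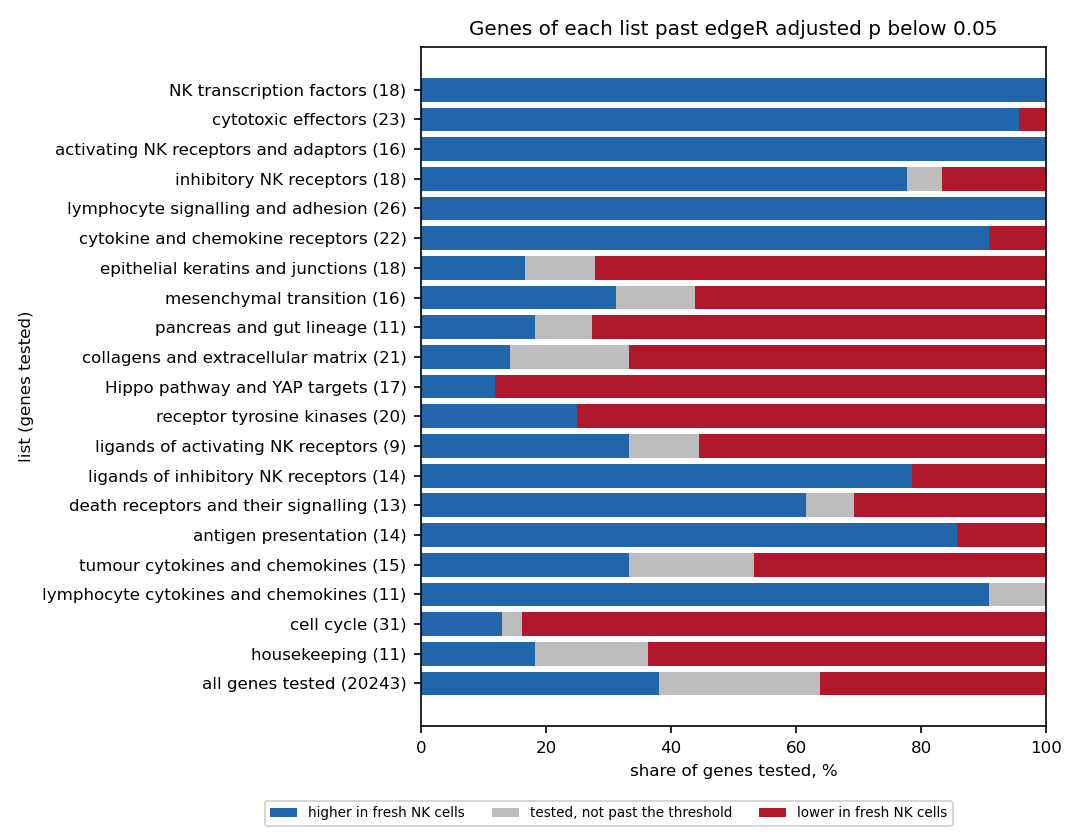
Share of the tested genes of 20 lists that were higher in fresh NK cells (blue), lower (red) or not past the threshold (grey), with the number tested in brackets and all 20243 genes tested in the bottom bar. Lists of lymphoid genes are blue for 77.8% or more of their tested members, and the epithelial, Hippo, tyrosine kinase and cell cycle lists, among others, are red for most of theirs.

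Genes of class I antigen presentation, the signal that inhibitory receptors read, were mostly lower in the tumour line than in NK cells. Of 14 genes 12 were higher in NK cells, all by more than 4-fold, against 38.0% and 16.7% of all genes tested. The median log2 fold change was 3.91. H2-K1 (chromosome 17, 34214991 to 34219321), a class I heavy chain, had 3014, 3047, 2871 and 2824 CPM in NK cells, against 32.1 and 33.7 CPM in Panc02, a log2 fold change of 6.41 ± 0.07 (edgeR, Benjamini-Hochberg adjusted p = 2.69e-12). H2-D1 averaged 2592 ± 103 CPM in NK cells and 226 ± 3.19 CPM in Panc02 (SD, n = 4 and 2), a log2 fold change of 3.44 ± 0.06. The light chain gene B2m had 1786, 2010.4, 2329 and 2165.8 CPM, against 85.5 and 102 CPM. Reads of near-identical class I genes were counted for several of them, so the split between H2-K1 and H2-D1 is uncertain.

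Genes that supply peptides to that pathway were at differing levels in Panc02. Tap1 (chromosome 17, 34406527 to 34416199), which carries peptides into the endoplasmic reticulum, had 226, 243, 238 and 218 CPM in NK cells, against 0.0213 and 0 CPM in Panc02, where a single read was counted. Psmb8, a subunit of the immunoproteasome, had 257, 211, 169 and 156 CPM in NK cells, against 0. Psmb9, a further subunit, had 86.3, 83.0, 85.5 and 76.6 CPM, against 0. Nlrc5, the transactivator of class I genes, had 191, 192, 205 and 204 CPM, against 4.23 and 4.01 CPM, low in Panc02 but above 0. Erap1, which trims peptides, had 106, 105, 115 and 125 CPM, against 18.3 and 15.95 CPM. The 2 genes of the list that were lower in NK cells, Calr and Pdia3, encode chaperones that fold many proteins besides class I. Calr had 663, 641, 607 and 605 CPM in NK cells, against 905 and 897 CPM in Panc02.

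Tap1 and Psmb9 are divergent neighbours, and their RefSeq windows share 275 of 300 bases, so that 1 stretch serves both genes. It is shown because both were at or near 0 in Panc02. Capitals mark the Sp1 letters GGGCGG on either strand, found in 44.5% of windows of genes more than 4-fold higher, 58.1% of windows of genes more than 4-fold lower and 35.7% of all windows. The core of the interferon-stimulated response element, searched as well, is not in the window and is in 5.78%, 2.42% and 3.44% of these groups of windows.
Tap1, chr17:34187306-34187605, plus strand: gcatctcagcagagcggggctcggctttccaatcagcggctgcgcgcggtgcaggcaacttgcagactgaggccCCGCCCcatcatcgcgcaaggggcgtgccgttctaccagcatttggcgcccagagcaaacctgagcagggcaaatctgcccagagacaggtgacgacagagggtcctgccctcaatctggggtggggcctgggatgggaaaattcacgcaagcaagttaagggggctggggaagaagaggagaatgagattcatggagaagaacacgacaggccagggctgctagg
The Sp1 letters start at base 75.

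Genes for ligands of activating receptors were read in Panc02 for part of the set. Of 15 genes 11 were matched to the table and 9 tested, of which 5 were lower in NK cells and 3 higher. Of all genes tested, 36.2% were lower and 38.0% higher. Raet1e (chromosome 10, 22034468 to 22250038), a ligand of NKG2D, had 0 counts in NK cells, against 41.4 and 41.7 CPM in Panc02, at least 1546-fold lower in NK cells. Raet1d had 0, 0.154, 0.0772 and 0 CPM, against 3.42 and 3.61 CPM. A further NKG2D ligand, Ulbp1, was found in both cells. It had 26.1, 22.1, 31.2 and 28.5 CPM in NK cells and 23.9 and 21.8 CPM in Panc02. Its log2 fold change of 0.16 ± 0.11 did not pass the test (edgeR, Benjamini-Hochberg adjusted p = 0.2). Without NK female 2 it passed, as higher in NK cells (log2 fold change 0.34). H60a, Raet1a, Raet1b and Raet1c were not matched to the table and are not analysed here, and reads of Raet1 copies may be shared among them.

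Ligands of other activating receptors stood on the tumour side too. Pvr, bound by Cd226, Tigit and Cd96, had 7.91, 7.29, 7.06 and 8.17 CPM in NK cells, against 80.2 and 82.2 CPM in Panc02, a log2 fold change of -3.48 ± 0.09. Nectin2 had 5.796, 4.99, 3.59 and 4.89 CPM, against 18.5 and 21.3 CPM, and Cadm1, bound by Crtam, 2.00, 1.84, 2.51 and 1.45 CPM, against 144 and 146 CPM. The 3 genes higher in NK cells were Cd48, Icam1 and Icam2, proteins of leukocytes. Icam1, the target of LFA-1, had 142, 137, 112.8 and 116 CPM in NK cells, against 4.70 and 5.06 CPM in Panc02.

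Ligands of inhibitory receptors were mostly higher in NK cells themselves (11 of 14, with 3 lower), against 38.0% and 36.2% of all genes tested. The median log2 fold change of the list was 3.90. Cd274, encoding PD-L1, had 31.8, 31.3, 32.4 and 36.2 CPM in NK cells, against 1.13 and 1.61 CPM in Panc02. Cd47, the signal that restrains phagocytes, had 401, 478, 536 and 519 CPM, against 129 and 136 CPM, and Clec2d, the ligand of Klrb1b, 61.1, 80.8, 85.7 and 78.5 CPM, against 0.448 and 0.0475 CPM. The 3 that were lower were Cdh1, Cdh2 and Lgals3, which encodes galectin-3 and had 10.8, 13.5, 11.2 and 10.97 CPM in NK cells, against 518 and 499 CPM in Panc02.

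Laid out as pairs, receptor RNA was present in one cell and ligand RNA in the other in 28 of 43 pairs. A mean of at least 1 TPM on each side was taken as present. The share of all genes at that level was not taken, so these counts only describe the chosen pairs. NKG2D pairs with H60a, Raet1a, Raet1b and Raet1c, which were not matched, are not among the 43. Of activating pairs on NK cells 6 of 9 had both, of inhibitory pairs 9 of 14, of cytokine pairs 3 of 5 and of chemokine pairs 2 of 5. For NKG2D the receptor stood at 479 ± 11.9 TPM in NK cells and Raet1e at 58.1 ± 0.282 TPM in Panc02. For Klrg1 the receptor stood at 250.4 ± 39.1 TPM and Cdh1 at 103 ± 0.997 TPM, and for Cx3cr1 the receptor at 47.3 ± 7.46 TPM and its chemokine Cx3cl1 at 35.8 ± 1.15 TPM. The Ly49 receptor gene Klra3 stood at 176 ± 15.2 TPM. Its partner H2-K1 was at 33.8 ± 1.191 TPM in Panc02, against 3012 ± 63.4 TPM in NK cells. Klra7 stood at 799 ± 141 TPM, and its partner H2-D1 at 265 ± 3.66 TPM in Panc02, against 3027 TPM in NK cells. Ligands under 1 TPM in Panc02 included Cd48 at 0.121 ± 0.171 TPM and Il15 and Ccl2 at 0. RNA levels do not show that either protein was on the cell surface.

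**Figure D5:**
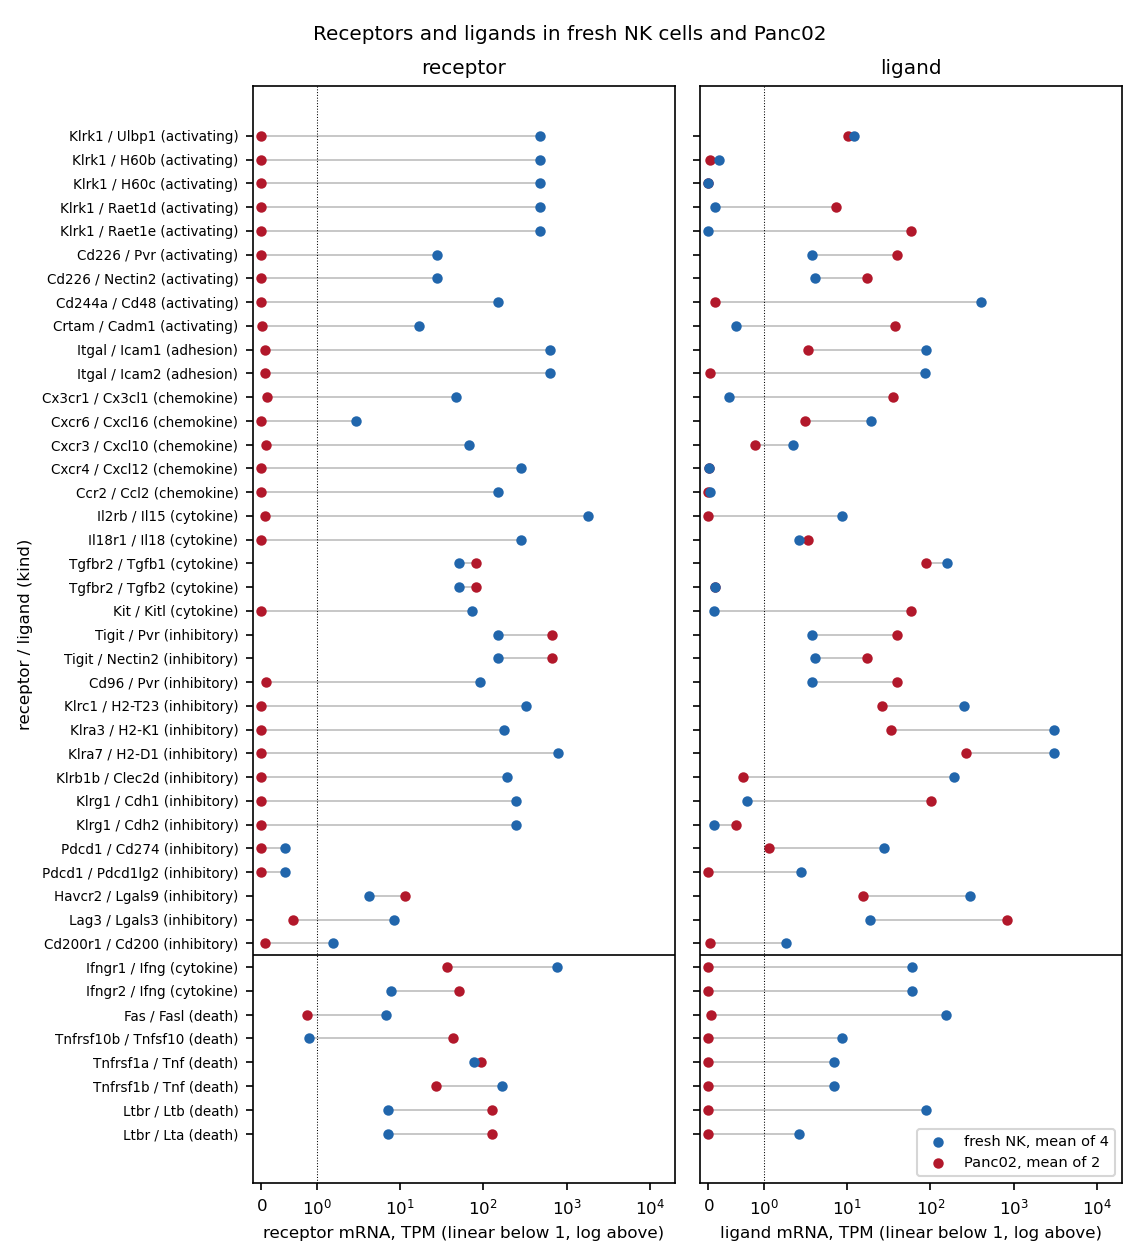
Mean TPM of receptors (left) and ligands (right) of 43 pairs in fresh NK cells (blue, n = 4) and Panc02 (red, n = 2), on an axis that is linear below 1 TPM and logarithmic above, with receptors of NK cells above the black line and receptors of Panc02 under it. Receptors Tigit, Havcr2 and Tgfbr2 are higher in Panc02 than in NK cells, and the ligands Raet1e, Pvr, Cadm1, Cx3cl1, Kitl, Cdh1 and Lgals3 are higher in Panc02.

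Death receptors on the target differed from each other. Fas (chromosome 19, 34268066 to 34305172) had 6.05, 5.37, 3.32 and 3.66 CPM in NK cells, against 0.662 and 0.475 CPM in Panc02, so the Fas and Fasl pair fell under 1 TPM on the tumour side. Tnfrsf10b (chromosome 14, 70004921 to 70021860), the TRAIL receptor, went the other way, with 1.38, 2.15, 1.77 and 0.914 CPM in NK cells, against 73.0 and 82.9 CPM in Panc02, while its ligand gene Tnfsf10 had 15.2, 12.5, 17.3 and 16.3 CPM in NK cells and 0 in Panc02. Ltbr, the lymphotoxin receptor, was at 6.33, 7.22, 3.97 and 4.68 CPM in NK cells, against 99.7 and 101 CPM. Downstream, Casp8, the initiator caspase, and its brake Cflar were found in both cells and higher in NK cells, with log2 fold changes of 1.46 ± 0.07 and 0.70 ± 0.07. Of the 2 chains of the interferon-γ receptor, Ifngr1 had 499, 548, 840.3 and 984 CPM in NK cells, against 33.3 and 35.9 CPM in Panc02, and Ifngr2 8.95, 11.1, 10.5 and 8.87 CPM, against 65.1 and 63.2 CPM. Of the 13 genes of the list, 8 were higher and 4 lower in NK cells, against 38.0% and 36.2% of all genes tested.

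Cytokine genes usual for tumours were split, with 7 of 15 tested genes lower and 5 higher in NK cells, out of 22. Of all genes tested, 36.2% were lower and 38.0% higher. Vegfa, the blood vessel growth factor, had 15.1, 20.7, 13.6 and 14.6 CPM in NK cells, against 179 and 171 CPM in Panc02. Csf1, which sustains macrophages, had 4.53, 1.84, 2.78 and 5.08 CPM, against 64.7 and 60.6 CPM, and Lif, of the IL-6 family, 1.41, 0.921, 0.849 and 0.780 CPM, against 47.9 and 46.7 CPM. Tgfb1 was higher in NK cells, at 269, 247, 252 and 276 CPM, against 146 and 152 CPM, and Il15 was detected only on the NK side, at 7.37, 5.83, 6.41 and 6.61 CPM.

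Cell cycle genes were lower in NK cells in 26 of the 31 tested, against 36.2% of all genes tested. The test for more than 4-fold lower was passed by 12, against 11.6% of all genes tested. The median log2 fold change of the list was -1.65. Top2a, the topoisomerase of dividing cells, had 212, 203, 239 and 222 CPM in NK cells, against 898 and 923 CPM in Panc02. Mki67, the proliferation antigen Ki-67, had 274, 263, 356 and 353 CPM, against 632 and 627 CPM, so that fresh NK libraries were far from 0. The D cyclins, which start the cycle, divided by cell type. Ccnd1 (chromosome 7, 144483668 to 144493662) had 19.9, 13.8, 12.3 and 8.84 CPM in NK cells, against 1467 and 1485 CPM in Panc02, a log2 fold change of -6.84 ± 0.14. Ccnd3 had 405, 465, 481 and 454 CPM, against 96.6 and 97.4 CPM, with a log2 fold change of 2.14 ± 0.07, and Ccnd2 averaged 644 ± 29.3 CPM in NK cells and 429 ± 1.33 CPM in Panc02 with a log2 fold change of 0.52 ± 0.06. Erythroid precursors also divide, and their markers were present in these NK libraries at the sums given above. Their part in the level of cell cycle genes was not tested.

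Genes often used as an internal standard were not all level between the cells. Of 11 tested, 2 were higher and 7 lower in NK cells, against 38.0% and 36.2% of all genes tested. Only 1 was higher without NK male 5, without either Panc02 library or with NK cells as 1 group. By more than 4-fold, 0 were higher and 2 lower, against 16.7% and 11.6% of all genes tested. Actb averaged 6645 ± 507 CPM in NK cells and 3233 ± 8.95 CPM in Panc02 (SD, n = 4 and 2), and Gapdh, named after its values were seen, 49.9 ± 2.75 and 304 ± 36.9 CPM. Their log2 fold changes were 0.97 ± 0.06 and -2.68 ± 0.07.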

How the data were processed

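RNA-seq libraries of mouse spleen NK cells and Panc02 were made from 100 ng of RNA of integrity number 8.5 to 10, per the labels' protocols. The deposited values are raw counts per gene. Per the file headers, the authors counted them with featureCounts on exons of Ensembl release 113 (GRCm39), reverse-stranded, with multi-mapping reads included and mates counted singly, so that near-identical genes share reads and most fragments count as a pair. As the submitters' processing notes list them, reads were handled with featureCounts 2.0.6, HISAT2 2.2.1, cutadapt 4.4 and SAMtools 1.19.2, named there without an order. Symbols were matched for 51498 of 78298 gene IDs. CPM was taken over total gene counts and TPM with the deposited gene lengths. Mitochondrial genes were at 0 counts in all libraries.

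Fresh NK cells and Panc02 were compared with edgeR 4.0.16 (R 4.3.3, TMM, filterByExpr, robust quasi-likelihood test with 3 residual degrees of freedom, Benjamini-Hochberg adjustment over 20243 genes), as the mean of the female and male NK groups minus Panc02. The test for more than 4-fold was glmTreat. The labels do not say that libraries come from separate animals or cultures, and a p-value then reflects only how far these libraries spread, which may be technical. A fold against a group at 0 counts was computed against 3 counts over the group. Intervals and floors cover counting error only.

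The members and lists were chosen with earlier results of these data known. Named genes are the 8 with the largest change in each direction with at least 20 CPM, up to 5 members per list with the highest CPM, up to 4 members against each list's direction and the genes of all pairs; a few of these are not reported here. Runx3, Snai1, Tap1, Psmb8, Psmb9, Nlrc5, Erap1, Col5a1, Spp1 and single markers of other cells were named after their values were seen. Promoter letters were searched in RefSeq windows of GRCm38.p6. Alternatives were median-ratio, total-count and upper-quartile scaling, DESeq2 1.42.0, no filter, NK cells as 1 group, a replicate block and each library left out.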

Additional observations from a re-analysis of the deposited data

Results flagged for a closer look

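Among 150 values tested over the 4 fresh NK libraries, 8 had 1 library whose gap to its neighbour divided by the group's range exceeded Dixon's 95% critical value for 4 samples. Chance flags about 1 in 20 such groups. For Cd226 the ratio was 0.934, with 47.5, 37.1, 46.9 and 46.8 CPM and female 2 lowest. For Flt3l, encoding a growth factor of dendritic cells, it was 0.836 (63.2, 75.1, 64.4 and 62.3 CPM). Lag3 had a ratio of 0.862 and was highest in female 1 (9.85, 4.07, 4.82 and 4.87 CPM). For Lamp1 the ratio was 0.883, with male 4 highest (189, 189.7, 216 and 192 CPM), and every NK library stayed below Panc02. Lgals3 gave 0.866, with female 2 highest (10.8, 13.5, 11.2 and 10.97 CPM). St14 gave 0.863, with female 1 highest (5.26, 2.92, 2.55 and 2.90 CPM).

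The summed NK cell markers had a ratio of 0.951, with female 2 at 12081 CPM and the other libraries between 11348 and 11384 CPM. Female 2 was also the shallowest library. The summed platelet markers had a ratio of 0.834, with 466 CPM in male 5 and 252 to 288 CPM in the other libraries.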

How the results depend on the processing

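All 4 counts of genes (higher, lower and both by more than 4-fold) stayed within 1.5 times their main value under the 13 alternatives. Leaving out 1 library each gave 6313 to 8492 genes higher and 6247 to 7557 lower in NK cells, and 2786 to 3444 and 1869 to 2376 by more than 4-fold. More genes were lower than higher without NK male 4 or male 5, and more were higher in the other settings. DESeq2 gave 8068 and 6649, with 2997 and 1681 past 4-fold. Sample numbers shared by female NK and Panc02 libraries did not deviate together (correlation 0.00238), and the fit with replicate block gave 7153 higher and 6679 lower, with 3214 and 2097 past 4-fold. Upper-quartile scaling moved the median log2 fold change of all genes to 0.11, against 0.02 with TMM.

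Signs turned only for genes that had not passed the test, and for Ret. The log2 fold change of Tgfb2 was below 0, and was 0.064, 0.054, 0.082, 0.096 and 0.043 with median-ratio, total-count and upper-quartile scaling, DESeq2 and no filter, and 0.16 with the replicate block. Leaving out 1 library each, it ran between -0.73 and 1.55. With the block Ret stood at -0.021 and Ulbp1 at -0.0072, the call of Cdh2 was lost (log2 fold change -1.66), and 1 matrix gene and 1 pancreas and gut gene were higher, against 3 and 2. Leaving out 1 library each, Il18 ran between -0.98 and 0.0099. The calls of Serpinh1, Sdha, Ret, Tagln, Pdcd1, Col3a1, Bhlha15, Pilra and Cdh2 were lost in 1 or more settings. Epcam passed without NK female 1 (log2 fold change -1.61) and Ulbp1 without NK female 2 (0.34). Cxcl10 passed without NK female 2 (1.88) and with no filter (1.43). The cause was not tested. Depth limits statements on absent genes to 0.0269 CPM over the NK libraries and 0.0337 CPM over Panc02.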

Other observations

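Transcription factors of other organs were among the 93 genes of Panc02 with at least 10 CPM and no count in NK cells, and are named here after their values were seen. Onecut2, a factor of liver and pancreas, had 133 and 140.4 CPM in Panc02 with 0 counts in all 4 NK libraries, and its relative Onecut3 36.1 and 34.99 CPM. Pax2, known from the kidney, had 35.3 and 33.3 CPM, Pax9, known from pharyngeal pouches and teeth, 19.98 and 20.7 CPM, and En1, known from the midbrain and limb, 33.7 and 32.2 CPM. Sim1, a factor of the hypothalamus, stood at 19.1 and 21.3 CPM and Foxf1, of gut and lung mesenchyme, at 14.5 and 15.3 CPM. The Panc02 libraries were close to each other at all of these. Growth factors were in the same set: Ereg and Areg, neighbouring genes whose products bind the EGF receptor, had 108 and 118 CPM and 96.2 and 102 CPM, next to Egfr at 164 and 165 CPM in the same libraries. Igf2 had 57.3 and 54.3 CPM and the neurotrophin gene Bdnf 46.9 and 50.3 CPM.

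Among the 379 genes of NK cells without a count in Panc02 were class II histocompatibility genes, which serve antigen-presenting cells. H2-Aa had 103, 89.0, 75.6 and 66.5 CPM and H2-Ab1 106, 74.2, 70.1 and 57.9 CPM. In these libraries the B cell markers summed to 28.5, 23.2, 18.6 and 29.0 CPM, and all 8 of them were detected. Dendritic cell markers, Itgax among them, summed to 735, 649, 584 and 553 CPM in the same libraries. Immunoglobulin heavy chain Ighm had 151, 129, 227 and 162 CPM. The T cell receptor constant gene Trbc1 had 357, 324, 273 and 235 CPM, while the T cell markers Cd3d and Cd3e stood at 4.70, 3.22, 2.01 and 2.02 CPM and 0.169, 0.230, 0.309 and 0.376 CPM. The erythroid factor genes Tal1 and Nfe2 had 97.5, 104, 111 and 97.7 CPM and 62.5, 68.7, 63.7 and 66.0 CPM. The part of other cells in these values was not tested.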
